A study of Homo sapiens with 8 samples.

Results

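Knockouts of 10 stand-alone bromodomain proteins were followed through a pooled CRISPR screen in Taxol-resistant breast cancer cells. The members were PHIP, BRWD1, BRWD3, TRIM24, TRIM33, ATAD2, ATAD2B, ZMYND8, ZMYND11 and SP140, taken by gene name from the sgRNA tables. They make up 10 of the 779 genes tested and 100 of the 7775 sgRNA rows that target a gene, 10 sgRNAs for each member in every table. A further 80 rows are non-targeting sgRNAs.

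The screen used EPIKOL, a lentiviral sgRNA library against chromatin regulators, in Cas9-expressing T1-160 cells. T1-160 is a derivative of SUM159PT, a triple-negative breast cancer cell line, that was selected by stepwise exposure to Taxol (paclitaxel), a drug that stabilises microtubules. The Taxol group (3 libraries) was grown in 160 nM Taxol and the DMSO group (3 libraries) in vehicle, both for 16 population doublings. The AP group (2 libraries, replicates 1 and 3) was collected after puromycin selection as the initial time point, before the DMSO and Taxol cultures. The paper states that T1-160 cells were kept in 160 nM Taxol in routine culture. It does not say whether Taxol was present up to the AP collection. All groups share Cas9, the library and the puromycin selection, which was done in the presence of verapamil, a blocker of drug efflux. In such a screen, an sgRNA that becomes more abundant is read as a knockout whose carriers gained ground over the others in the pool. One that becomes rarer is read as the opposite. That reading is relative. The non-targeting sgRNAs also had median log2 fold changes of 0.43 in DMSO against AP and 0.68 in Taxol against AP. Taxol against DMSO isolates growth under the drug, whereas DMSO against AP and Taxol against AP follow the pool from the start to the end without and with it. The last 2 comparisons share the AP libraries, and each comparison shares its libraries with the other 2.

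Bromodomains are small protein folds that bind acetylated lysine, mostly on histone tails, and so tie a protein to active chromatin. The members carry theirs outside the BET, p300-CBP and SWI/SNF families. PHIP, BRWD1 and BRWD3 combine WD40 repeats with a pair of bromodomains, and PHIP and BRWD3 are known as substrate receptors of the CUL4-DDB1 ubiquitin ligase. TRIM24 and TRIM33 belong to the TIF1 family, in which a ubiquitin-ligase RING is joined to a PHD finger and a bromodomain. ATAD2 and ATAD2B are AAA ATPases. ZMYND8 and ZMYND11 join a PHD finger, a bromodomain and a PWWP domain, and SP140 is a reader known mainly from immune cells.

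The libraries held 2045984 to 11771418 reads, or 260.5 to 1499 reads per sgRNA, and Taxol 2 was the shallowest. The rarest member sgRNA in any library still had 24 reads, and each member held between 0.0418% and 0.445% of the normalized counts of a library. The 10 most abundant sgRNAs took 6.23% to 10.6% of a Taxol library, 2.36% to 2.80% of a DMSO library and 1.53% to 2.73% of an AP library. Gene values below are means over the 10 sgRNAs of log2(normalized count + 1), a scale that understates changes of sgRNAs with few counts. The labels do not say whether replicates were separate infections or cultures, so the spread and the p-values measure only these libraries and may be technical. Each table was scaled by itself, and a level is therefore comparable only within its table.

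PHIP was the only member called enriched after adjustment, as a gene by rank aggregation and only in Taxol against AP. None of its single sgRNAs passed adjustment. In that comparison, 9 of its 10 sgRNAs were higher, and its gene mean increased by 0.96 on the log2 scale, a 1.94-fold change. The non-targeting sgRNAs had a median fold change of 0.68 there, and centring on them lowered the PHIP value to 0.43. In Taxol against DMSO the PHIP difference was 0.57, and in DMSO against AP it was 0.35, and neither was called after adjustment. Centred in the same way, they were 0.40 and 0.04. No member was called depleted in any comparison.

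Against AP, the gene mean of PHIP was 9.88, 9.61 and 10.03 in Taxol 1, 2 and 3, against 8.84 and 8.93 in AP 1 and AP 3. The lowest Taxol library lay above both AP libraries, as it did for 32.3% of all genes. The means were 9.84 ± 0.21 (SD, n = 3) in Taxol and 8.88 ± 0.07 (SD, n = 2) in AP. Robust rank aggregation (RRA), which asks whether the sgRNAs of a gene crowd the top of the ranking of all sgRNAs, gave a one-sided enrichment p of 0.000422 and an adjusted p of 0.0299. PHIP was thus 1 of 10 members enriched at an adjusted p under 0.05, a rule met by 1.41% of all genes. Limma on the gene means, where the error is the scatter of the libraries around their group, gave a two-sided p of 0.00126 and an adjusted p of 0.0744, with a 95% interval of 0.45 to 1.47. By this test no member was called, against 0.128% of all genes. PHIP ranked 14 from the top among the 779 genes by fold change. Leaving out any 1 of the 5 libraries ended the RRA call, with adjusted p between 0.0626 (without AP 1) and 0.631 (without AP 3), the fold change staying between 0.86 and 1.07. Centring on the non-targeting sgRNAs lowered the fold change to 0.43 and raised the unadjusted limma p to 0.131. The RRA call stayed (adjusted p = 0.0150). RRA uses only ranks, which a shift common to all sgRNAs of a library can hardly change, so this says little about the call.

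**Figure D1:**
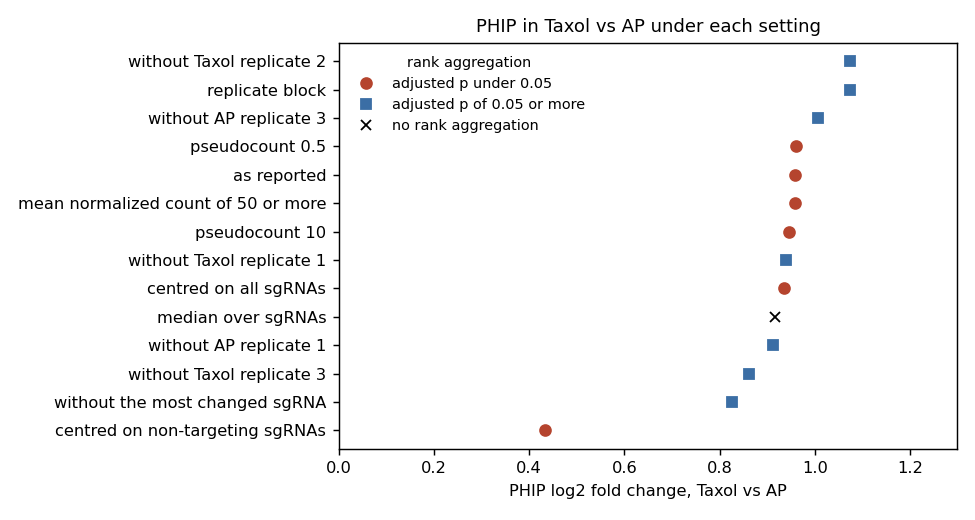
Fold change of PHIP in Taxol against AP (x axis, log2) under each way of processing the data (y axis). Circles mark an RRA adjusted p under 0.05, squares a larger one, and the cross a setting without rank aggregation; values run from 0.43 to 1.07, and every setting that leaves out a library is a square.

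Under the drug, the gene mean of PHIP was 9.77, 9.50 and 9.91 in Taxol 1, 2 and 3, against 9.06, 9.17 and 9.25 in DMSO 1, 2 and 3. All Taxol libraries exceeded all DMSO libraries, as they did for 6.29% of all genes. The means were 9.73 ± 0.21 in Taxol and 9.16 ± 0.10 in DMSO (SD, n = 3 each). The RRA enrichment p was 0.0241 before and 0.569 after adjustment, and limma gave a p of 0.0288 and an adjusted p of 0.726, with a 95% interval of 0.06 to 1.07. PHIP ranked 18 of 779 by fold change here. The unadjusted RRA p exceeded 0.05 without DMSO 2 (0.0588), without DMSO 3 (0.0508), without Taxol 3 (0.0674) and without the most changed sgRNA (0.0770). The unadjusted limma threshold was passed in 8 of 13 alternatives, and centring on non-targeting sgRNAs lowered the fold change to 0.40.

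In vehicle, the gene mean of PHIP was 9.48, 9.69 and 9.68 in DMSO 1, 2 and 3, against 9.22 and 9.31 in AP 1 and AP 3. The DMSO libraries all exceeded the AP libraries, as they did for 29.3% of all genes. The non-targeting sgRNAs had a median fold change of 0.43 here, and centring on them lowered the PHIP difference to 0.04. Without centring, the difference of 0.35 had a 95% limma interval of -0.08 to 0.78. Limma gave an adjusted p of 0.332, and RRA placed 2 of the 10 sgRNAs in the top 25% of the ranking, with an adjusted p of 1.

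The sgRNAs of PHIP changed by unequal amounts, and whether they form separate groups was not tested. In Taxol against AP, 4 of the 10 were in the top 5% of all sgRNAs, with log2 fold changes between 1.98 and 2.15, and the other 6 lay between -0.47 and 0.88. The 4 were epikol_v2_4552, epikol_v2_4554, epikol_v2_4555 and epikol_v2_4557, the names that the library gives its sgRNAs. In each of them all Taxol libraries exceeded both AP libraries. The share of all sgRNAs that separate in this way was not counted, here or for other sgRNAs named below. Without the drug, in DMSO against AP, epikol_v2_4555 and epikol_v2_4557 already had log2 fold changes of 1.04 and 1.08.

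The most abundant was epikol_v2_4554, with 11534, 2542 and 2468 normalized counts in Taxol 1, 2 and 3, against 996.6 and 1119 in AP 1 and AP 3. This sgRNA held 51.2% of the PHIP counts of Taxol 1. The sgRNA epikol_v2_4552 had 1528, 3661 and 1943 in the Taxol libraries, against 343.6 and 858.8 in the AP libraries. Taxol 2 was its highest library, whereas Taxol 1 was the highest for epikol_v2_4554.

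The largest fold change, 2.15, belonged to epikol_v2_4557, with 5292, 581.2 and 1311 normalized counts in Taxol 1, 2 and 3, against 380.2 and 336.1 in AP 1 and AP 3. The sgRNA epikol_v2_4555 had 267.5, 256.4 and 2032 in the Taxol libraries, against 88.2 and 183.1 in the AP libraries. Its high value came from Taxol 3, so the leading sgRNAs peaked in different libraries. Without epikol_v2_4557 the gene mean was 0.83 higher in Taxol than in AP, and the RRA adjusted p was 0.195.

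Against DMSO, epikol_v2_4552 had 1415, 3391 and 1785 normalized counts in Taxol 1, 2 and 3, against 851.8, 451.0 and 777.5 in DMSO 1, 2 and 3. The sgRNA epikol_v2_4554 had 10676, 2355 and 2267 in the Taxol libraries, against 1729, 711.1 and 1619 in the DMSO libraries. These were the only PHIP sgRNAs of this comparison whose groups did not overlap, both with a log2 fold change of 1.61. How many of all sgRNAs separate here was not counted. The remaining 8 lay between -0.49 and 1.21. Among them, epikol_v2_4553 (1.21) was higher than epikol_v2_4557 (1.03) and epikol_v2_4555 (0.94), which led against AP. No PHIP sgRNA passed the limma test after adjustment over all sgRNAs, the lowest adjusted p being 0.737 against AP.

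**Figure D2:**
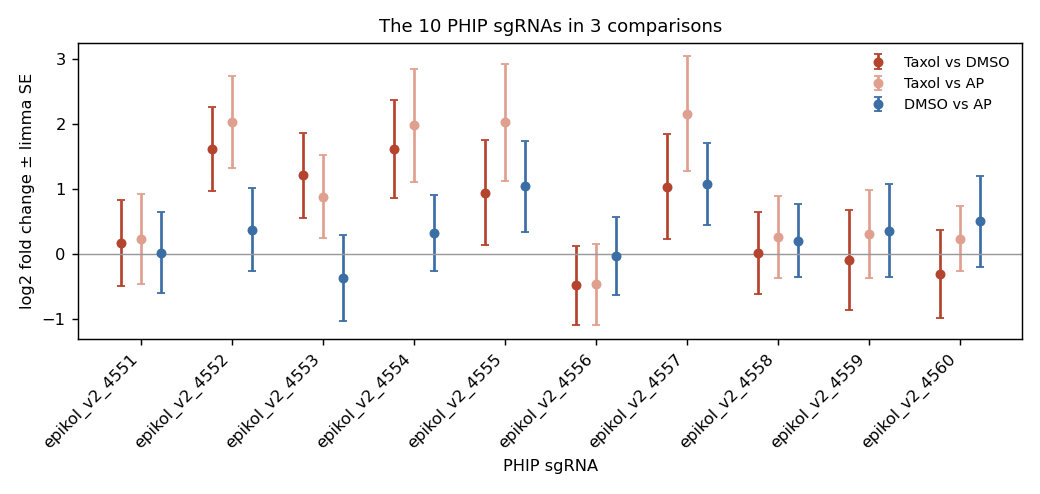
Log2 fold change (y axis) of each of the 10 PHIP sgRNAs (x axis) in the 3 comparisons, with the limma standard error as bar. The 4 leading sgRNAs lie between 1.98 and 2.15 in Taxol against AP, while epikol_v2_4556 is below 0 in all 3 comparisons.

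The paralogues of PHIP had fold changes near 0 under the drug. BRWD1, which in mice is needed in B-cell and germ-cell development, had gene means of 9.50, 9.53 and 9.35 in Taxol 1, 2 and 3, against 9.31, 9.82 and 9.40 in DMSO 1, 2 and 3. The groups overlapped, with a fold change of -0.05 and a 95% limma interval of -0.56 to 0.46. BRWD3, a gene of X-linked intellectual disability, had 8.98, 9.40 and 9.39 in Taxol, against 9.09, 9.09 and 9.23 in DMSO. Its fold change was 0.12 (95% interval -0.37 to 0.60), and Taxol 1 was its lowest library.

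In Taxol against AP, the Taxol libraries of both paralogues exceeded the AP libraries, as did those of 32.3% of all genes. BRWD1 had 9.61, 9.64 and 9.47 in Taxol 1, 2 and 3, against 9.08 and 9.22 in AP 1 and AP 3, a fold change of 0.42. BRWD3 had 9.09, 9.51 and 9.51 in Taxol, against 8.96 and 9.05 in AP, a fold change of 0.36. Neither passed a threshold (limma adjusted p = 0.253 for BRWD1 and 0.304 for BRWD3). Centring on non-targeting sgRNAs turned the fold changes to -0.10 for BRWD1 and -0.17 for BRWD3. In DMSO against AP the fold changes were 0.43 for BRWD1 and 0.20 for BRWD3, with limma adjusted p of 0.289 for BRWD1 and 0.582 for BRWD3. The same centring made them 0.12 for BRWD1 and -0.11 for BRWD3.

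The difference between paralogues was compared library by library with an exact two-sided permutation test, over 15 tests of 5 pairs in 3 comparisons. PHIP minus BRWD1 lay between -0.03 and 0.56 in the Taxol libraries, against -0.65 to -0.15 in the DMSO libraries, so that PHIP changed by 0.62 more under the drug (exact p = 0.1). PHIP minus BRWD3 lay between 0.10 and 0.79 in Taxol, against -0.03 to 0.08 in DMSO, a difference of 0.45 (exact p = 0.1). Both pairs separated completely, and 0.1 is the smallest p that 3 libraries against 3 allow. The adjusted p over the 15 tests was 0.6 for both, and a test of this size could not have passed 0.05, so whether PHIP and its paralogues differ is not settled by it.

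**Figure D3:**
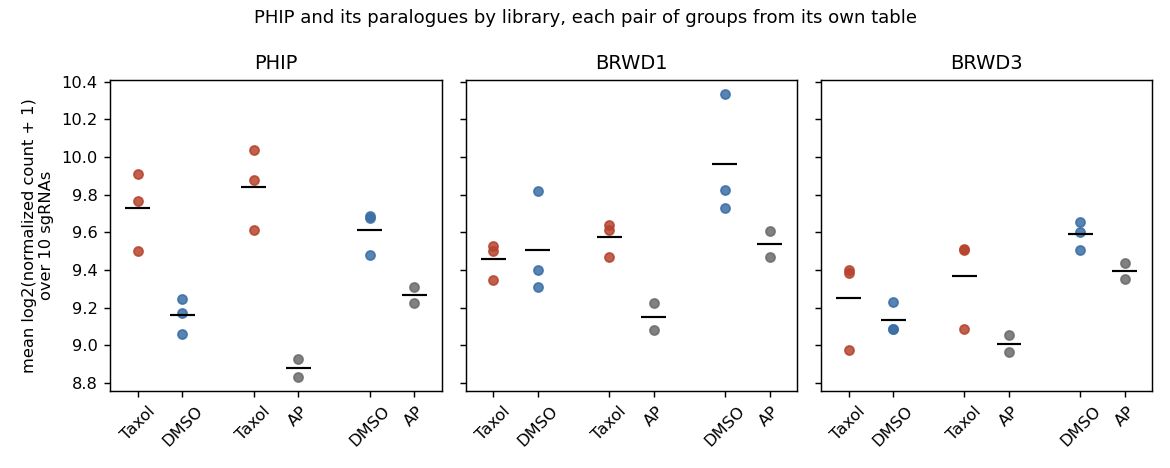
Gene mean of PHIP, BRWD1 and BRWD3 (y axis, log2 of normalized count plus 1, averaged over 10 sgRNAs) in each library, with 1 point per library and a bar at the group mean. Each pair of neighbouring groups comes from its own table; for PHIP the Taxol points lie above the DMSO and the AP points, and for BRWD1 the Taxol and DMSO points overlap.

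Of the TIF1 family, TRIM24, a histone reader and coregulator of nuclear receptors, passed the unadjusted RRA threshold in Taxol against DMSO (exact enrichment p = 0.0133, adjusted p = 0.519) with a fold change of only 0.02. Its gene mean was 9.39, 8.72 and 8.28 in Taxol 1, 2 and 3, against 8.58, 8.87 and 8.88 in DMSO 1, 2 and 3. Taxol 1 was above and Taxol 3 below every DMSO library. Only 4 of its 10 sgRNAs were higher. The threshold was no longer passed without Taxol 1 (exact p = 0.0909), Taxol 2 (0.0776) or Taxol 3 (0.116), and the fold change ran between -0.27 and 0.28 in the fits that leave out a library.

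Its most changed sgRNA was epikol_v2_6585, which had 478.4, 255.6 and 462.2 normalized counts in Taxol 1, 2 and 3, against 67.9, 90.4 and 115.5 in DMSO 1, 2 and 3. Its groups did not overlap, and its fold change of 2.09 had a limma adjusted p of 0.967. Against AP the same sgRNA was lower in DMSO, with 90.9, 129.4 and 155.3 in DMSO 1, 2 and 3, against 552.9 and 244.6 in AP 1 and AP 3, a fold change of -1.58. The other 9 TRIM24 sgRNAs averaged -0.21 in Taxol against DMSO, with an exact enrichment p of 0.849.

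TRIM33, known for modulating SMAD4 in TGF-beta signalling, had the widest spread of the members in the Taxol libraries. Its gene mean was 9.47, 8.53 and 8.02 in Taxol 1, 2 and 3, against 8.64, 8.45 and 8.29 in DMSO 1, 2 and 3, an SD of 0.73 in Taxol and 0.18 in DMSO (n = 3 each). The fold change was 0.21, with a 95% limma interval of -0.30 to 0.73. One sgRNA, epikol_v2_6614, held 74.7% to 88.6% of the TRIM33 counts in the Taxol libraries, 75.8% to 83.3% in the DMSO libraries and 70.2% to 80.4% in the AP libraries. Its counts were 17367, 17863 and 13726 in Taxol 1, 2 and 3, against 10749, 13222 and 10826 in DMSO 1, 2 and 3, and the groups did not overlap (fold change 0.49, limma adjusted p = 0.967). In Taxol against AP, epikol_v2_6617 was lower, with 123.1, 127.0 and 83.9 in Taxol 1, 2 and 3, against 253.3 and 272.3 in AP 1 and AP 3 (fold change -1.25, limma adjusted p = 0.737). TRIM33 as a gene passed no threshold.

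ATAD2, a coactivator that binds acetylated histone H4 and is often overexpressed in tumours, was higher than in AP in both cultures without passing adjustment. Its gene mean was 9.15, 9.04 and 8.79 in DMSO 1, 2 and 3, against 8.35 and 8.60 in AP 1 and AP 3. The DMSO libraries all exceeded the AP libraries, as they did for 29.3% of all genes. The fold change of 0.51 gave an RRA enrichment p of 0.0152 (adjusted p = 0.348) and a limma p of 0.0313 (adjusted p = 0.194). The unadjusted RRA p exceeded 0.05 without DMSO 1 (0.111), DMSO 2 (0.0805) or DMSO 3 (0.0506). In Taxol against AP the gene mean was 9.10, 8.38 and 8.56 in Taxol 1, 2 and 3, against 7.97 and 8.22 in AP. The fold change of 0.59 gave a limma p of 0.0281 (adjusted p = 0.171) and an RRA enrichment p of 0.120 (adjusted p = 0.769). In Taxol against DMSO the fold change was 0.03 (95% interval -0.43 to 0.49). With a library left out, the fold change lay between 0.39 and 0.64 in DMSO against AP. In Taxol against AP it lay between 0.38 and 0.74. Centring on non-targeting sgRNAs lowered the fold changes to 0.21 and 0.06 in the same order, with unadjusted limma p of 0.529 and 0.829. Its paralogue ATAD2B, less well studied, had fold changes of 0.20 in Taxol against DMSO, 0.22 in DMSO against AP and 0.47 in Taxol against AP, and its libraries overlapped in all 3 comparisons.

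ZMYND11, a reader of methylated histone variant H3.3 on transcribed genes, had gene means of 9.52, 9.37 and 9.38 in DMSO 1, 2 and 3, against 8.97 and 8.92 in AP 1 and AP 3. The libraries were far apart relative to their spread (SD 0.08 in DMSO and 0.04 in AP), 8 of 10 sgRNAs were higher, and the fold change of 0.48 gave a limma p of 0.0302 and an adjusted p of 0.194. The unadjusted limma threshold was passed in 8 of 12 alternatives, and the fold change was 0.17 after centring on non-targeting sgRNAs. RRA did not pass (adjusted p = 1), with 4 sgRNAs in the top 25% of the ranking and 1 in the top 5%. In Taxol against AP the fold change was 0.43 (limma adjusted p = 0.242), and in Taxol against DMSO it was -0.09. ZMYND8, which works with the demethylase KDM5C and the NuRD complex, was the lowest member in Taxol against DMSO (-0.13) and in Taxol against AP (-0.07), and its groups overlapped in every comparison.

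SP140 passed the unadjusted RRA threshold in Taxol against AP (exact enrichment p = 0.0310, adjusted p = 0.456), with 5 sgRNAs higher and 5 lower. Its gene mean was 8.14, 8.16 and 8.73 in Taxol 1, 2 and 3, against 7.85 and 8.06 in AP 1 and AP 3. The Taxol libraries all exceeded the AP libraries, as they did for 32.3% of all genes. The fold change of 0.39 had a limma adjusted p of 0.293. The leading sgRNA, epikol_v2_5958, had 503.9, 1209 and 1409 normalized counts in the Taxol libraries, against 100.1 and 370.7 in the AP libraries. Over its sgRNAs, 2 were separated upwards and 2 downwards, a count not set against all sgRNAs. Without epikol_v2_5958 the fold change was 0.17. The unadjusted RRA threshold was passed in 6 of 13 alternatives and in none that left out a library, where the fold change lay between 0.19 and 0.49, and centring on non-targeting sgRNAs turned the fold change to -0.14.

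**Figure D4:**
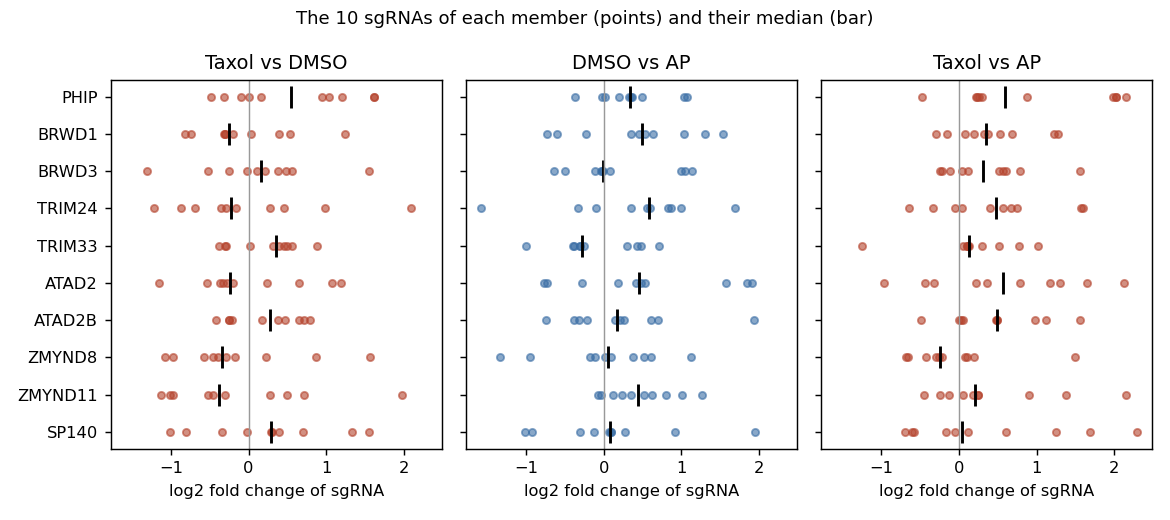
Log2 fold change (x axis) of the 10 sgRNAs of each member (points) with their median (bar) in the 3 comparisons. For most members the sgRNAs lie on both sides of 0; the medians of PHIP are 0.55 in Taxol against DMSO, 0.34 in DMSO against AP and 0.59 in Taxol against AP.

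Counted over the members, Taxol against DMSO gave 2 of 10 enriched at an unadjusted RRA p under 0.05, PHIP and TRIM24, against 6.55% of all genes. At the adjusted threshold there were none, against 0.128% of all genes. None was depleted by the unadjusted rule, which 4.75% of all genes met, or by the adjusted one, which 0.257% met. By limma on gene means, 1 member (PHIP) was higher at an unadjusted p under 0.05 and none passed adjustment, against 4.62% and 0.128% of all genes. PHIP was also the only member whose Taxol libraries all exceeded the DMSO libraries, as did those of 6.29% of all genes. Fold changes were above 0 for 7 of 10 members and for 55.1% of all genes, with a median of 0.07 over the members and 0.03 over all genes.

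In DMSO against AP, 1 of 10 members (ATAD2) was enriched by the unadjusted RRA rule and none by the adjusted one, against 8.09% and 0.128% of all genes. None was depleted by either, against 11.8% unadjusted and 2.05% adjusted. By limma, 2 members (ATAD2 and ZMYND11) were higher unadjusted and none passed adjustment, against 12.5% and 2.18% of all genes. The DMSO libraries exceeded the AP libraries for 6 members, PHIP, BRWD1, BRWD3, TRIM24, ATAD2 and ZMYND11, and for 29.3% of all genes. Fold changes were above 0 for 9 members and 63.3% of all genes, with medians of 0.28 and 0.15.

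In Taxol against AP, 2 of 10 members (PHIP and SP140) were enriched by the unadjusted RRA rule, against 8.34% of all genes, and none was depleted, against 13.1% unadjusted and 4.62% adjusted. By limma, 2 members (PHIP and ATAD2) were higher unadjusted, against 16.9% of all genes. The Taxol libraries exceeded the AP libraries for 6 members, PHIP, BRWD1, BRWD3, ATAD2, ZMYND11 and SP140, and for 32.3% of all genes. Fold changes were above 0 for 9 members and 67.7% of all genes, with medians of 0.43 and 0.20. The zero of these scales depends on the normalization. The non-targeting sgRNAs had median fold changes of 0.11 in Taxol against DMSO, 0.43 in DMSO against AP and 0.68 in Taxol against AP, and centring on them shifted the median of all genes by -0.17, -0.31 and -0.53. After that shift, 4, 5 and 2 members were above 0 in the same order, PHIP among them each time. The PHIP fold changes were then 0.40, 0.04 and 0.43, with unadjusted limma p of 0.208, 0.911 and 0.131.

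**Figure D5:**
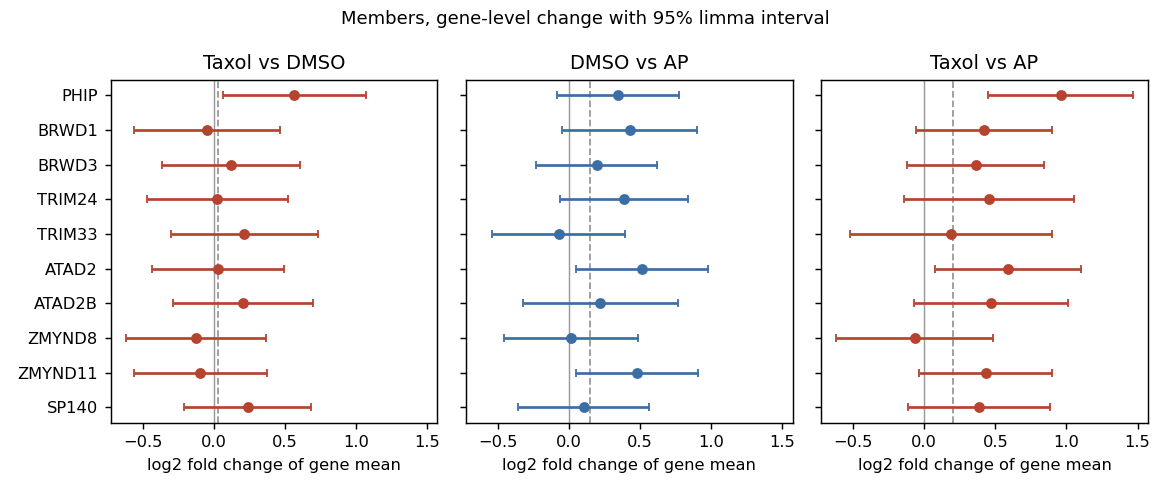
Log2 fold change of the gene mean (x axis) with its 95% limma interval for the 10 members (rows) in the 3 comparisons. The solid line is 0 and the dashed line the median of all genes; the interval of PHIP lies above 0 in Taxol against DMSO (0.06 to 1.07) and in Taxol against AP (0.45 to 1.47).

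Low p-values of single member sgRNAs lay mostly on the higher side. In Taxol against DMSO, 4 of 100 were higher and 0 lower at an unadjusted limma p under 0.05, against 2.01% and 1.55% of all sgRNAs. In DMSO against AP, 8 were higher and 1 lower, against 3.21% and 3.65%, and 3 of the 8 targeted ATAD2. In Taxol against AP, 6 were higher and 1 lower, against 2.24% and 3.90%, and 3 of the 6 targeted PHIP. By limma, 0 of the 100 member sgRNAs and 0 of all 7855 sgRNAs passed adjustment in each comparison.

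Another 3 groups of genes were set beside the members. Of 32 other bromodomain proteins, 29 were measured, and their median fold change was -0.07 in Taxol against DMSO, 0.12 in DMSO against AP and 0.30 in Taxol against AP. At an unadjusted RRA p under 0.05, 4 were enriched and 1 depleted in Taxol against DMSO, 3 and 1 in DMSO against AP, and 2 and 1 in Taxol against AP. The acetyltransferases EP300 (fold change 1.43) and CREBBP (1.31) were the only ones enriched by RRA after adjustment, both in Taxol against AP (adjusted p = 0.000161 and 0.000605). CREBBP also rose without the drug, with a fold change of 1.03 in DMSO against AP (limma adjusted p = 0.0227, RRA adjusted p = 0.0893). EP300 passed the unadjusted RRA threshold in both other comparisons, with fold changes of 0.85 in Taxol against DMSO and 0.54 in DMSO against AP. The remaining enriched ones were BRD1 (-0.16), BAZ2A (0.46) and TAF1 (0.18) in Taxol against DMSO, and BRD1 (0.34) in DMSO against AP. The depleted ones were the methyltransferase KMT2A in Taxol against DMSO (-0.45), TAF1 in DMSO against AP (-0.13) and the remodeller subunit BAZ1A in Taxol against AP (-0.12), none of them after adjustment. Of the CUL4 ligase partners DDB1, CUL4A, CUL4B and RBX1, only the RING subunit RBX1 was called by RRA after adjustment, depleted in Taxol against AP (fold change -0.57, adjusted p = 0.0159). Its fold change was -0.72 in DMSO against AP, where it passed only the unadjusted threshold (adjusted p = 0.184), and 0.11 in Taxol against DMSO. Of the ZMYND8 and TIF1 partners KDM5C, KDM5D, CHD4 and TRIM28, none passed adjustment, and the remodeller CHD4 passed the unadjusted RRA threshold for depletion in Taxol against AP (fold change -0.38, exact p = 0.0144).

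By Euclidean distance over the 3 gene fold changes, the 5 genes most like PHIP among the 778 others were ATXN7L3 (distance 0.0548), SFMBT1 (0.0851), SENP1 (0.112), KDM2B (0.123) and SUPT7L (0.132). ATXN7L3 and SUPT7L encode subunits of the coactivator SAGA, SFMBT1 and KDM2B are linked to repressive chromatin, and SENP1 removes SUMO. ATXN7L3 had fold changes of 0.52 in Taxol against DMSO, 0.36 in DMSO against AP and 0.93 in Taxol against AP. The nearest member was ATAD2B, at rank 118, and the paralogues BRWD3 and BRWD1 stood at ranks 202 and 246. The 3 comparisons share libraries, so the distance is a description only.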

How the data were processed

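The authors' deposited sgRNA tables, 1 for each comparison, hold other values than raw reads, namely normalized counts from MAGeCK 0.5.8 (submitters' processing notes), with the values of a group joined in a cell. The aligner and trimming are not given in the sources used here. AP cells hold 3 values; the outer values were taken as replicates 1 and 3, from the order in the tables' names, and 2 per-sample value columns were not used. The order of values was likewise taken as the replicate number for DMSO and Taxol. A header line counted as an sgRNA was dropped. Deposited fold changes, scores and p-values, and the gene tables, hold the authors' own comparisons and were not used. Values were whole multiples of a fixed step (98.98% or more within 0.1 read), which gave the depths.

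Values were tested as log2(normalized count + 1) with limma 3.58.1 in R 4.3.3 (trend), on single sgRNAs and on gene means, two-sided. Alpha-RRA (alpha 25%, genes with at least 3 sgRNAs) ranked sgRNAs by the moderated statistic and gave exact one-sided p-values. Benjamini-Hochberg adjustment ran over all genes or sgRNAs, with a threshold of 0.05, and unadjusted p-values are given because the study used them. All 10 members were named, and values of context genes were given past the unadjusted RRA threshold. Members and lists were chosen with earlier results of these data known. The paralogue test and the setting without the most changed sgRNA were added after seeing the data.

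In Taxol against DMSO, deviations of same-numbered libraries from their group means correlated at 0.19, 0.15 and 0.22 over genes. Those of differently numbered libraries correlated at -0.13 to -0.05. Libraries of the same number may therefore be paired, and the labels do not say what they share. Printed values are from fits without the replicate block, which changed no call of a member there. With the block, the unadjusted limma p of PHIP was 0.0379 and the unadjusted RRA enrichment p of TRIM24 was 0.0240. Calls by limma on gene means over all genes then numbered 3, against 1 without it. Scripts were tested on simulated data with known changes.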

Additional observations from a re-analysis of the deposited data

How the results depend on the processing

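Across pseudocounts of 0.5 and 10, a minimum mean normalized count of 50, centring on all or on non-targeting sgRNAs, and an alpha of 10%, PHIP stayed the single member called by RRA in Taxol against AP, with adjusted p between 0.0150 and 0.0394, and no member was called in the other comparisons. These settings hardly change the ranks that RRA uses, so they test the call little. On non-targeting centring the unadjusted limma p of PHIP in Taxol against AP was 0.131. The replicate block left 0 members called by RRA in Taxol against AP and 1, PHIP, called by limma on gene means (fold change 1.07, limma adjusted p = 0.0269, RRA adjusted p = 0.25). That fit uses replicates 1 and 3 only, and the deviations of these numbers did not correlate (-0.05 and 0.04 in Taxol and AP), so the numbers are not shown to pair there. Leaving out a library gave 0 members called by RRA in Taxol against AP every time, with a PHIP fold change of 0.86 to 1.07, and leaving out the most changed sgRNA gave 0.83 with no call. Each such fit has fewer libraries or sgRNAs. With 1 AP library left, that library is assumed to vary like the Taxol group.

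Over all genes, enriched calls in Taxol against AP numbered 11, against 4 with the replicate block and 1 (without AP 3) to 8 with a library left out. Calls by limma on gene means there numbered 1, against 64 with the block and 154 after centring on non-targeting sgRNAs. The same centring raised enriched calls in Taxol against DMSO to 4, against 1. An edgeR fit on recovered reads was planned and not run, so every test rests on the deposited normalized counts. The joint normalization, the 2 AP libraries and the unstated origin of replicates limit every value against AP.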
